A study of Saccharomyces cerevisiae with 9 samples.

Results

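The 25S rRNA is the long RNA of the large ribosomal subunit, and it is cut from the 35S precursor that RNA polymerase I (Pol I) makes from the ribosomal DNA. Its 5′ part folds into the first domains of the large subunit and is transcribed before the part that forms the peptidyl transferase centre. A polymerase that moves slowly over a stretch of template, or stops there, is caught at that stretch more often than elsewhere. Native elongating transcript sequencing (NET-seq) records this as the position of the last nucleotide added to the RNA that is pulled down with the polymerase. Reads in 25S have a further source, because mature rRNA carried along in the pull-down has the same sequence as the nascent RNA and cannot be told apart from it. For that reason the methods of the study restrict statements on Pol I to the spacers, and every value below is a number of RNA 3′ ends, nascent and mature together.

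The interior of 25S analysed here was its 5′ part without the first 30 nt, chosen by position alone. It is a stretch of 1.67 kb, 24.3% of the 6858 positions of the 35S repeat, from nt 31 to nt 1698 of 25S, where nt counts from the 5′ end of mature 25S. In the R64 assembly this is XII:462621-464288, minus strand, inside the exon of RDN25-2 (YNCL0021C) and of the 35S transcript RDN37-2. The last 51 positions also lie in YLR154C-G, a small protein-coding annotation on the same strand. The bases in the files differed from R64 at 0 positions of the interior, and at 0 positions did the RDN25-1 and RDN25-2 copies differ, so reads cannot be assigned to a copy. The interior is made of 29.4% G, 27.5% A, 24.5% U and 18.7% C.

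The cells were Saccharomyces cerevisiae grown in YPD at 30 °C and harvested in early, mid or late log, with 3 libraries in each subphase. All 9 libraries came from 1 genotype, a MATa strain with the marker alleles ade2-1, ura3-1 and trp1-1, his3-11 and can1-100 and a double leu2 allele that the labels join with a comma (leu2-3 and leu2-112), in which the Pol I subunit gene is tagged as RPA135-(HA)3-(His)7::TRP1. The libraries of a subphase are described in the study as biological replicates, and p-values measure the spread between them. All mid log libraries were sequenced in a run that held no other subphase, so mid log and its run cannot be told apart. Early log replicate 1 shared its run with the late log libraries, and early log replicates 2 and 3 were in another run. The recovered depth over the repeat was 350940.0 to 7307420.5 reads, and the median interior position held 43 reads in the shallowest library (early log replicate 3) and 906 in the deepest (mid log replicate 2). Values are reads per 1000000 reads on the repeat (RPM), so they are shares of the repeat and say nothing of the amount of Pol I per cell.

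The 8 positions with the highest mean over the subphases are shown with 15 nt to each side, since these sites carried the most 3′ ends of the region. The capital is the last base of the RNA, and the sequence runs 5′ to 3′ as RNA. Of the 8 bases, 6 are A.
nt 372, XII:463932-463962: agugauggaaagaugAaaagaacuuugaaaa
nt 749, XII:463555-463585: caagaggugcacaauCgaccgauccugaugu
nt 1098, XII:463206-463236: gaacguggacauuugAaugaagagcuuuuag
nt 1053, XII:463251-463281: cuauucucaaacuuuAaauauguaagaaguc
nt 1075, XII:463229-463259: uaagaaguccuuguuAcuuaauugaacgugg
nt 1178, XII:463126-463156: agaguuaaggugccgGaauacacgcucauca
nt 1566, XII:462738-462768: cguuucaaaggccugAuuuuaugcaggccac
nt 519, XII:463785-463815: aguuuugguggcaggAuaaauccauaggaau

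The next 5 positions are shown for how they differed between subphases. Nt 700, nt 927 and nt 1458 were among the highest positions only in mid log libraries, nt 218 only in late log libraries, and nt 1568 had the largest rise of a named position in late over early log. The first and second have C, the third U, the fourth G and the last U as the final base.
nt 700, XII:463604-463634: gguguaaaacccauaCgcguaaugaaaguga
nt 927, XII:463377-463407: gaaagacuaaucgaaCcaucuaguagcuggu
nt 1458, XII:462846-462876: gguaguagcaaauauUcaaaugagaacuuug
nt 218, XII:464086-464116: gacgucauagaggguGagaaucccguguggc
nt 1568, XII:462736-462766: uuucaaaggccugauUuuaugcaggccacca

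The share of 35S reads that fell in the interior was 25.7%, 26.2% and 26.4% for the early log libraries, 27.4%, 27.3% and 27.2% for mid log, and 28.5%, 29.1% and 28.5% for late log. The libraries of the 3 subphases did not overlap. The means were 26.1% ± 0.331, 27.3% ± 0.0700 and 28.7% ± 0.303 (SD, n = 3 each) and their F statistic was 72.5 (exact permutation test over all assignments of the 9 libraries, p = 0.00357, the smallest it can give). Each pair of subphases had an exact two-sided p of 0.10, the smallest that 3 libraries against 3 allow. A typical position went the other way. The median RPM per interior position was 123 ± 6.26 for early, 121 ± 5.46 for mid and 108 ± 3.15 for late log (SD, n = 3 each; exact permutation test, p = 0.025). The sum of the interior and its median position thus moved in opposite directions. In late over early log the means of the 3′ part of 25S did so too. Its share of 35S reads was 30.8% ± 4.22 for early, 32.1% ± 1.64 for mid and 33.7% ± 1.04 for late log. Its median position held 134 ± 1.32, 134 ± 2.51 and 126 ± 5.71 RPM in the same order (SD, n = 3 each). Early and late log libraries overlapped in that share.

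Interior reads lay in fewer positions in late log. The top 2.5% of interior positions, 42 in each library, held 11.7%, 8.95% and 10.7% of interior reads for early, 11.2%, 11.4% and 13.5% for mid, and 14.9%, 15.4% and 15.9% for late log. The late log libraries lay above all the others. The means were 10.5% ± 1.39, 12.04% ± 1.26 and 15.4% ± 0.509 (SD, n = 3 each), and they differed over the subphases with an F statistic of 11.8 (exact permutation test, p = 0.0107). In the 3′ part of 25S the same measure was 14.8% ± 7.48, 15.6% ± 1.62 and 17.1% ± 0.696, and in the interior of 18S it was 11.9% ± 0.630, 13.0% ± 0.423 and 14.8% ± 0.461. The late log mean was the highest of the 3 in all these regions, and whether the rise was larger in the 5′ part of 25S was not tested. In the 3′ part the libraries overlapped, since early log replicate 1 (23.4%) lay above the late log ones (17.0%, 16.5% and 17.9%).

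**Figure D1:**
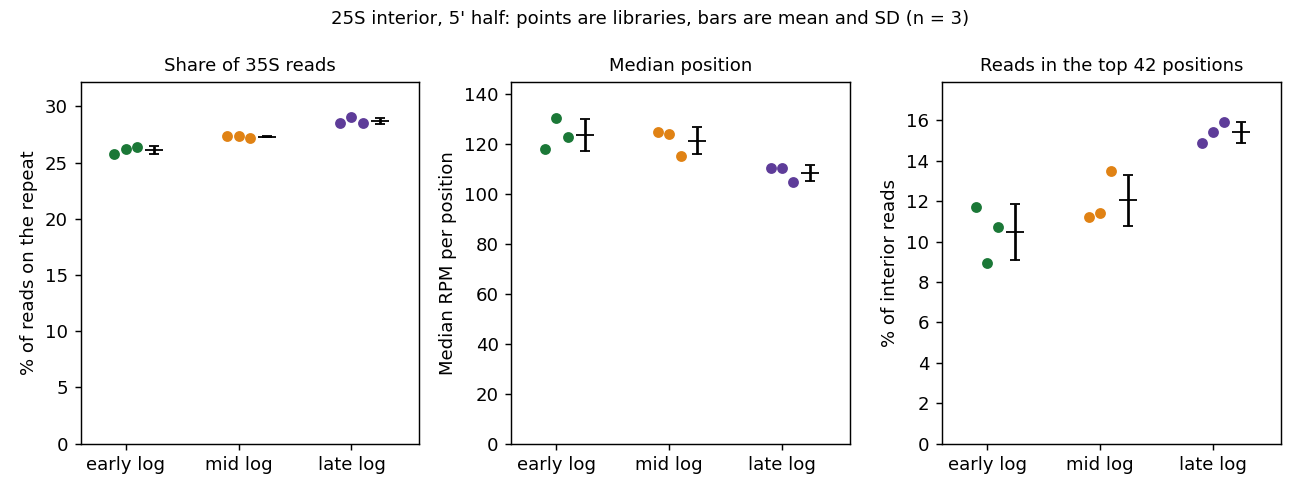
The panels plot, for early, mid and late log from left to right, the percent of 35S reads in the 25S interior, the median RPM per interior position, and the percent of interior reads in the top 42 positions. Points are libraries and black bars are mean and SD (n = 3); late log has the highest share (28.7%) and the lowest median position (108 RPM).

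Set against the 3′ part of 25S, which has the same number of positions, the 5′ part held a ratio of reads of 0.858 ± 0.119 for early, 0.852 ± 0.0460 for mid and 0.853 ± 0.0333 for late log (SD, n = 3 each; exact permutation test of the F statistic, p = 1). Early log replicate 1 was the lowest library with 0.722. Set against the interior of 18S, a comparison chosen after seeing the data, the ratio was 0.912, 0.825 and 0.822 for early, 1.038, 1.061 and 1.118 for mid, and 1.118, 1.083 and 1.094 for late log (exact permutation test, p = 0.0179). All early log libraries lay below 1 and all others above it. Mid and early log did not overlap in this ratio (exact two-sided permutation test, p = 0.10, the smallest it can give), and late and mid log did (p = 0.50). The interior of 18S held 30.7% ± 2.15 of 35S reads for early, 25.5% ± 1.03 for mid and 26.1% ± 0.642 for late log. The 5′ part of 25S held 26.1%, 27.3% and 28.7%. From early to mid log the fall of 18S was thus larger than the rise of the 5′ part.

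Windows of 100 nt gave an uneven profile. The highest window was the fourth, nt 331 to 430, in all 9 libraries, and it is also the window with the most A (43%). It held 236, 263 and 334 RPM per nt in the early log libraries, 255, 256 and 234 RPM in the mid log ones and 366, 427 and 397 RPM in the late log ones. Late log lay above both other subphases, and early log replicate 3 came nearest to it. The second highest window, nt 931 to 1030, averaged 214 RPM per nt. The lowest windows were nt 1331 to 1430, with a mean of 89.9 RPM per nt and the most G and C (57%), and nt 531 to 630, with 98.0 RPM per nt. The ratio of the highest to the lowest window was 2.81 for early, 2.49 for mid and 5.58 for late log.

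The fourth window is printed because it also held the densest group of peaks, where a peak is a position among the top 42 of at least 1 library. Capitals mark its 26 peak positions, of the 115 in the whole interior. Of these, 17 are on A.
nt 331 to 430, XII:463889-463988: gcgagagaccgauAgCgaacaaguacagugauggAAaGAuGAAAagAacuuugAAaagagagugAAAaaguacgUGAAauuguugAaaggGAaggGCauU

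The next window pair is printed to set the stretch that gained most in late over early log beside the lowest one. Capitals again mark peak positions, 9 in nt 1031 to 1130 (34% G and C, the least of all windows) and 3 in nt 1331 to 1430.
nt 1031 to 1130, XII:463189-463288: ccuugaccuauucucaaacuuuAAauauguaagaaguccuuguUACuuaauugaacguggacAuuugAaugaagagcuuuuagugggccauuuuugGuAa
nt 1331 to 1430, XII:462889-462988: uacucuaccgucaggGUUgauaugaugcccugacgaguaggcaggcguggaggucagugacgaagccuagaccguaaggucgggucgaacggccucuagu

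Each window was compared between subphases with limma on the log2 scale, with Benjamini-Hochberg adjustment over the 70 windows of the repeat. In late over mid log, 12 of the 17 interior windows were called at an adjusted p under 0.05, 5 higher and 7 lower, beside 44.3% of all windows (21.4% higher, 22.9% lower). Late over early log had 10, 5 higher and 5 lower, beside 62.9% of all windows (22.9% higher, 40% lower). Mid over early log had 1, beside 28.6% of all windows. The same 5 windows were called higher in late log in both comparisons, nt 31 to 130, nt 131 to 230, nt 331 to 430, nt 931 to 1030 and nt 1031 to 1130. The comparisons share the late log libraries. The window nt 931 to 1030 lost its call under several alternatives. In late over early log its call was lost with values scaled to the interior total (adjusted p = 0.321), without early log replicate 2 (0.0693) and without late log replicate 1, 2 or 3 (0.0924, 0.0642 and 0.0778), and its direction turned with the window median (-0.21). A fit with the sequencing run as a term, which sets the late log libraries against early log replicate 1 alone and pools the spread over both runs, lost it as well (0.167). In late over mid log its call was lost with the interior total (0.109), the window median (0.757), and without mid log replicate 2 (0.0631) or late log replicate 1 (0.0576).

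The window nt 1031 to 1130 held 126, 140 and 155 RPM per nt in the early log libraries, 168, 163 and 182 RPM in the mid log ones and 257, 266 and 261 RPM in the late log ones. No libraries of different subphases overlapped. It changed by 0.61 ± 0.0478 (log2, SE) in late over mid log (limma adjusted p = 0.000115) and by 0.89 ± 0.0805 in late over early log (limma adjusted p = 0.000545), the largest rise of an interior window there. The window nt 331 to 430 changed by 0.67 ± 0.0741 in late over mid log (limma adjusted p = 0.000481), the largest rise in that comparison. It changed by 0.53 ± 0.147 in late over early log (limma adjusted p = 0.0199), and without late log replicate 2, late log replicate 3 or early log replicate 2 that call was lost (adjusted p of 0.0634, 0.0633 and 0.0662), as it was with the window median (0.0764).

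The largest falls lay between nt 1231 and nt 1430. The window nt 1331 to 1430 held 75.2, 68.3 and 69.8 RPM per nt in late log, against 106, 97.8 and 95.4 RPM in mid log, a change of -0.48 ± 0.0914 (log2, SE; limma adjusted p = 0.00436). The window nt 1231 to 1330 held 99.9, 98.2 and 98.5 RPM per nt in late log, against 157, 146 and 137 RPM in early log, a change of -0.56 ± 0.0713 (limma adjusted p = 0.000679). In both windows every late log library lay below every library of the other subphase.

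The window called in mid over early log was nt 831 to 930, with 164, 164 and 175 RPM per nt in mid log, against 130, 137 and 113 RPM in early log, a change of 0.40 ± 0.0861 (log2, SE; limma adjusted p = 0.0238). The mid log libraries lay above the early log ones. Without mid log replicate 2 or 3 the adjusted p was 0.0877 and 0.0988, and the call was lost. This window holds nt 927, described below.

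**Figure D2:**
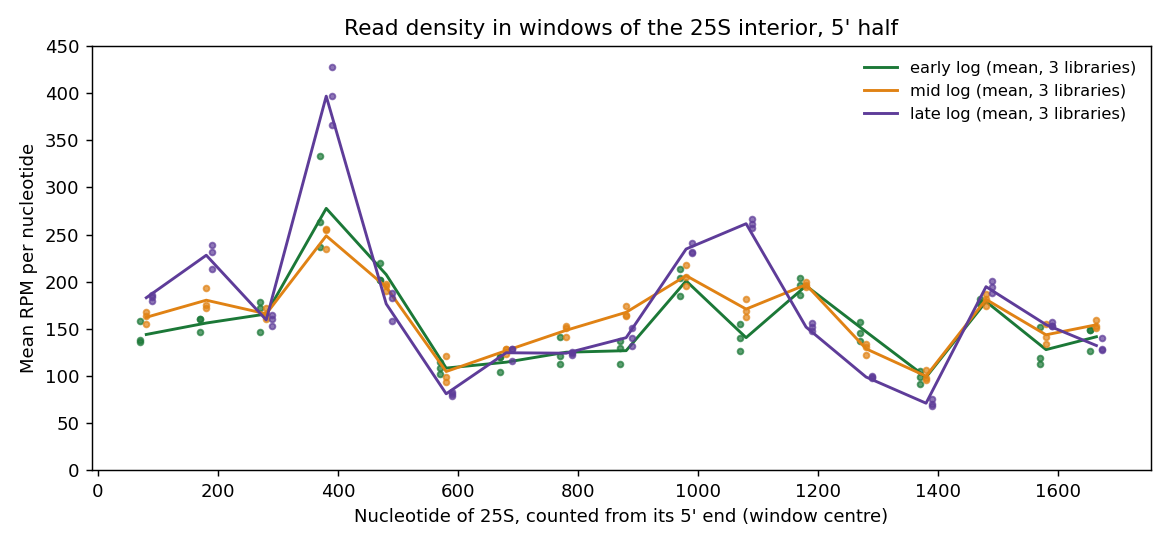
Read density (mean RPM per nucleotide) in the 17 windows of the interior is plotted against the nucleotide of 25S at the window's centre for early, mid and late log; lines are means of 3 libraries and points are libraries. The late log line stands above the others in nt 331 to 430 (366 to 427 RPM per nt) and nt 1031 to 1130 (257 to 266) and below them in nt 1231 to 1430.

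Window density ran against the share of G and C in the window. Across the 17 windows, Spearman's rho between the mean density and the percent of G and C was -0.33 for early, -0.40 for mid and -0.64 for late log. Single libraries gave -0.21 to -0.43 for early, -0.31 to -0.43 for mid and -0.60 to -0.63 for late log. The late log libraries thus had the strongest rank correlation. The windows share their libraries, and G and C content is tied to A content, so these values are a description.

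The order of positions was compared between libraries over all interior positions. Spearman's rho averaged 0.864 within early log, 0.960 within mid log and 0.982 within late log (3 pairs of libraries each). It averaged 0.776 between mid and early log, 0.851 between late and mid log and 0.741 between late and early log (9 pairs each). Of the 42 highest positions of a library, 61.9% were shared on average within early log, 76.2% within mid log and 74.6% within late log, against 44.2% between mid and early log, 54.2% between late and mid log and 33.9% between late and early log. Early log and late log were the least alike on average. Single pairs overlapped, with a rho of 0.695 to 0.866 between mid and early log and 0.699 to 0.784 between late and early log. Within early log rho was 0.818 to 0.905, so the order of the averages did not hold for every pair. Depth differs 20.8-fold between libraries and is part of these values, and its part was not tested. The mid log pairs all lay within 1 run, and so did the late log pairs. Early log replicate 1 was in another run than replicates 2 and 3. Its rho with them was 0.871 and 0.818, against 0.905 between replicates 2 and 3. The higher likeness within mid and late log thus cannot be told apart from the run.

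**Figure D3:**
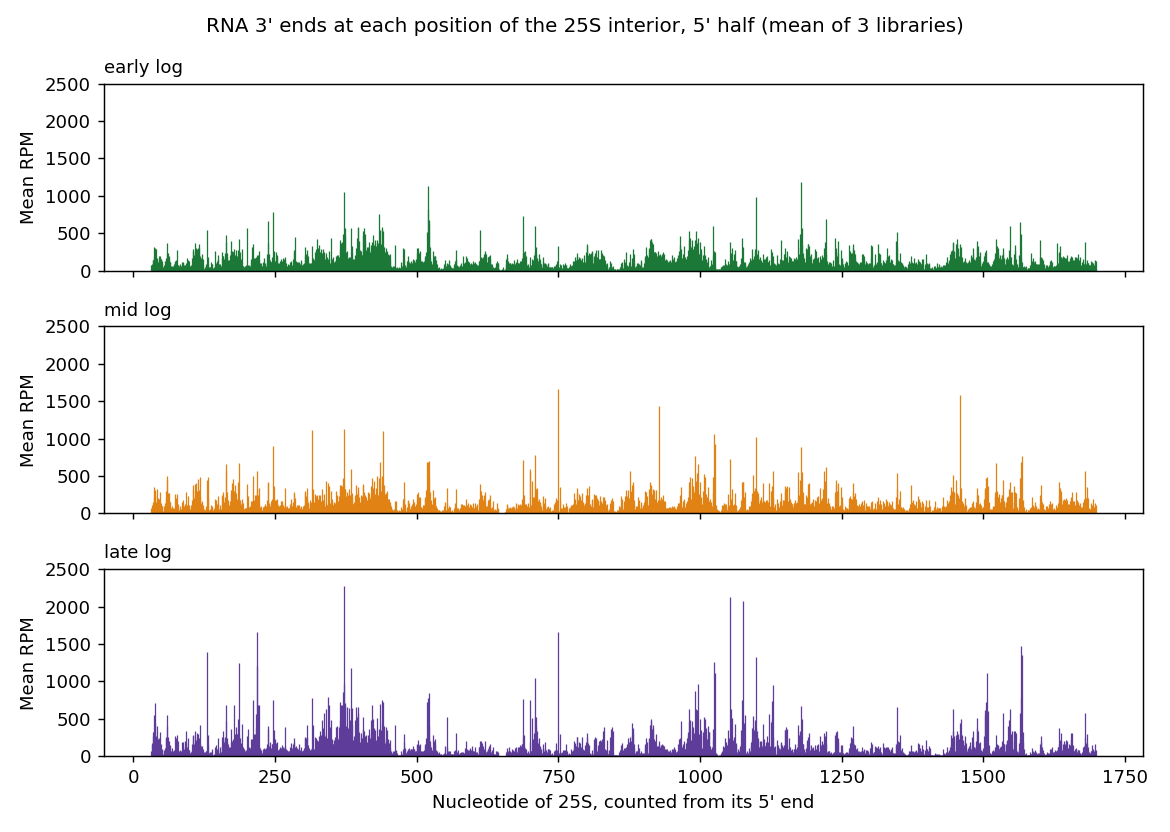
The mean RPM of 3 libraries is plotted at each interior position against the nucleotide of 25S, with early log at the top, mid log in the middle and late log at the bottom, all on the same axis. Late log has the tallest peaks, up to 2277 RPM at nt 372, and mid log has single peaks at nt 927 and nt 1458 that are low in the other subphases.

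Of the 115 peak positions, 57 were A, 21 U, 20 C and 17 G. G thus made up 14.8% of peaks and 29.4% of the interior, and A 49.6% of peaks and 27.5% of the interior. Among the peaks, 66 were next to another peak. The lowest peak of a library lay between 426 RPM (early log replicate 2, next position 426 RPM) and 712 RPM (late log replicate 2, next position 710 RPM). There were 5 positions that were peaks in all 9 libraries, nt 372, nt 384, nt 519, nt 521 and nt 1098, and all of them were A. A further 3 positions were peaks in all libraries of early log and in no other (nt 238, nt 993 and nt 1564), 3 in mid log (nt 700, nt 927 and nt 1458) and 3 in late log (nt 218, nt 1075 and nt 1127). Those of early log averaged 658, 537 and 650 RPM in early log, 424, 432 and 474 RPM in mid log and 405, 456 and 576 RPM in late log. The lowest peak held 426 to 516 RPM in early log libraries and 674 to 712 RPM in late log ones. A peak of 1 subphase only thus need not differ much in RPM.

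Whether the last base at peaks shifted between subphases was asked because the study examined it in the spacers. G made up 15.9% ± 4.96 of peaks for early, 10.3% ± 1.37 for mid and 15.1% ± 2.75 for late log (SD, n = 3 each; exact permutation test, p = 0.182, 0.182 after adjustment over the 4 bases). A made up 54.0%, 50% and 65.1% on average (exact permutation test, p = 0.075, adjusted 0.143). No base passed after adjustment among these peaks. With the top 1% of positions the A share passed (exact permutation p = 0.0107, adjusted 0.0429) and the C share did not (p = 0.0357, adjusted 0.0714). With the top 5% the A, C and U shares had a p of 0.0357, 0.0429 and 0.0357 and all an adjusted p of 0.0571, and with peaks at 5 times the local median C and U had a p of 0.0393 and 0.0429 and an adjusted p of 0.0857. The last base of all interior reads was compared in the same way. The share of reads that ended on A was 36.2% ± 0.538 for early, 33.5% ± 0.555 for mid and 38.4% ± 0.710 for late log, with no overlap between subphases (exact permutation test, p = 0.00357, adjusted 0.0143 over the 4 bases). The share of all interior reads that ended on C was 15.7% ± 1.40 for early, 20.5% ± 1.01 for mid and 14.9% ± 0.492 for late log (exact permutation test, p = 0.0143, adjusted 0.0286), with the mid log libraries above all others.

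Single positions were compared with limma on log2(RPM + 1), adjusted over all positions of the repeat, so fold changes understate those of low positions. In late over mid log, 853 interior positions were called (51.1%), 343 higher and 510 lower, beside 38.8% of all positions (16.6% higher, 22.2% lower). Late over early log had 764 calls (45.8%), 307 higher and 457 lower, beside 48.2% of all positions (12.5% higher, 35.7% lower). Mid over early log had 302 (18.1%), 155 higher and 147 lower, beside 19.2% of all positions (6.48% higher, 12.7% lower). The interior share of calls was above the share of the repeat in late over mid log and close to it in the others, and no test was made of that difference. In late over mid log the regions most like it were above the repeat too, with 45.9% called in the 3′ part of 25S and 45.4% in the interior of 18S. On simulated reads the fit recovered fewer changes in both comparisons with early log. The counts of calls therefore do not compare the amount of change between the comparisons.

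The split of these calls depends on scaling. The median log2 change over the repeat was -0.14 in late over mid log, -0.44 in late over early log and -0.27 in mid over early log, and over the interior it was -0.13, -0.17 and 0.01 in the same order. With the median of the repeat set to 0, the calls were 447 higher and 377 lower in late over mid log, 552 higher and 164 lower in late over early log, and 299 higher and 43 lower in mid over early log. Without mid log replicate 2 or 3 the mid over early log calls fell to 1 and 2. Without mid log replicate 1 there were 330. This library lay nearest to early log. Its Spearman's rho with each early log library was the highest among mid log libraries (0.866 with early log replicate 2). In the spacer ETS 1 it held 3.36% of 35S reads, against 0.702% and 0.565% for mid log replicates 2 and 3. The early log libraries held 2.53%, 5.18% and 3.92% there. What part this likeness has in the lost calls was not tested. With the sequencing run as a term, where early log replicate 1 is the lone early log library set against late log and is assumed to vary like the others, late over early log had 706 calls, 338 higher and 368 lower.

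Among the 8 highest positions, 3 lie within 45 nt, all on A. Nt 1075 held 415, 240 and 299 RPM in the early log libraries, 390, 367 and 520 RPM in the mid log ones and 1919, 2057 and 2245 RPM in the late log ones. It changed by 2.30 ± 0.160 (log2, SE) in late over mid log (limma adjusted p = 6.47e-05), the largest rise of a named position there, and by 2.74 ± 0.233 in late over early log (limma adjusted p = 4.43e-05). Nt 1053, 22 nt upstream, held 372, 356 and 425 RPM in the early log libraries, 601, 717 and 867 RPM in the mid log ones and 1891, 2115 and 2379 RPM in the late log ones. It changed by 1.56 ± 0.177 in late over mid log (limma adjusted p = 0.000268). At both positions the late log libraries stood apart from the rest, and both lie in the window of lowest G and C content. Nt 1098, 23 nt further downstream, held 966, 876 and 1106 RPM in the early log libraries, 1047, 892 and 1116 RPM in the mid log ones and 1392, 1317 and 1250 RPM in the late log ones. It was not called in late over mid log (limma adjusted p = 0.0675) or late over early log (limma adjusted p = 0.114).

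The highest position, nt 372, held 1035, 1137 and 989 RPM in the early log libraries, 1057, 1148 and 1163 RPM in the mid log ones and 2025, 2475 and 2331 RPM in the late log ones. Its late log values lay above all others, and it changed by 1.02 ± 0.164 (log2, SE) in late over mid log (limma adjusted p = 0.00129). Within the run that late log shared with early log replicate 1, the change in late over early log was 1.13. It is set against that 1 early log library, so no p-value is given. Nt 345, a G in the same window, held 290, 351 and 464 RPM in late log, against 86.6, 81.4 and 85.9 RPM in mid log, a change of 2.08 ± 0.159 (limma adjusted p = 7.03e-05). Nt 519 held 1078, 990 and 1340 RPM in the early log libraries, 833, 618 and 607 RPM in the mid log ones and 797, 830 and 713 RPM in the late log ones, so that early log lay above the other subphases. Neither difference from early log passed (limma adjusted p of 0.0559 for late log and 0.0601 for mid log).

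Nt 749 held 106, 546 and 356 RPM in the early log libraries, 1541, 1641 and 1819 RPM in the mid log ones and 1713, 1748 and 1535 RPM in the late log ones. Early log stood apart, and mid and late log overlapped. The change was 2.59 ± 0.519 (log2, SE) in mid over early log (limma adjusted p = 0.0175) and 2.59 ± 0.476 in late over early log (limma adjusted p = 0.00201). Early log replicate 1 had the lowest RPM of the early log libraries and shared its run with late log. The mid over early log call was lost without mid log replicate 2 or 3 (adjusted p of 0.0718 and 0.079).

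Nt 1178, a G, held 1864, 747 and 932 RPM in the early log libraries, 900, 814 and 964 RPM in the mid log ones and 699, 690 and 635 RPM in the late log ones. Early log replicate 1 lay far above the rest. The change in late over mid log was -0.40 ± 0.120 (log2, SE; limma adjusted p = 0.0256), and with the median of the repeat set to 0 it was not called (adjusted p = 0.12). The call was also lost without mid log replicate 3 (0.0609) and without late log replicate 1, 2 or 3 (0.0527, 0.0677 and 0.0915).

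Nt 1566 and nt 1568 lie 2 nt apart. Nt 1566 held 571, 397 and 487 RPM in the early log libraries, 528, 628 and 912 RPM in the mid log ones and 1396, 1424 and 1582 RPM in the late log ones, and it changed by 1.125 ± 0.197 (log2, SE) in late over mid log (limma adjusted p = 0.00199). Nt 1568 held 193, 76.0 and 77.0 RPM in the early log libraries, 416, 790 and 1099 RPM in the mid log ones and 1219, 1458 and 1378 RPM in the late log ones. It changed by 3.68 ± 0.321 in late over early log (limma adjusted p = 4.69e-05), the largest rise of any named position. Within the shared run, against early log replicate 1 alone, that change was 2.80, again with no p-value given.

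Other named rises in late over early log were of lower positions. Nt 845 held 364, 374 and 416 RPM in late log, against 46.5, 38.2 and 28.5 RPM in early log, a change of 3.34 ± 0.209 (log2, SE; limma adjusted p = 2.54e-05). Nt 1016 held 285, 314 and 355 RPM in late log, against 34.99, 30.1 and 31.4 RPM in early log, a change of 3.26 ± 0.184 (limma adjusted p = 2.54e-05). At both, mid log lay between the other subphases with a wide spread, 104 to 331 RPM and 108 to 250 RPM. Nt 218 was named for its rise in late over mid log and was not a low position in late log. It held 844, 1278 and 1505 RPM in late log, against 218, 335 and 445 RPM in mid log, a change of 1.88 ± 0.274 (limma adjusted p = 0.00078). In late over early log it changed by 3.07 ± 0.255 (limma adjusted p = 4.06e-05).

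The named falls in late over early log were at positions of moderate height. Nt 808 held 37.2, 31.1 and 23.1 RPM in late log, against 351, 234 and 117 RPM in early log, a change of -2.79 ± 0.364 (log2, SE; limma adjusted p = 0.00036). Nt 1583, 15 nt downstream of nt 1568, held 40.3, 37.7 and 30.8 RPM in late log, against 238, 197 and 274 RPM in early log, a change of -2.67 ± 0.207 (limma adjusted p = 3.67e-05). Nt 1378 held 27.2, 29.9 and 27.0 RPM in late log, against 176, 198 and 154 RPM in early log, a change of -2.60 ± 0.203 (limma adjusted p = 3.68e-05). The late log libraries lay below the early log ones at all 3 positions. The unequal-variance test on RPM called none of them (adjusted p of 0.209, 0.0799 and 0.0677). Of the 48 called differences at named positions, 36 were not called by that test, among them the late over mid log rises of nt 345 (adjusted p = 0.103), nt 218 (0.11), nt 372 (0.0612) and nt 1566 (0.0612).

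Each subphase had 3 positions that were peaks in all of its libraries and in no other library. Those of mid log are given here. Mid log and its sequencing run cannot be told apart at these positions either. Nt 927 held 1511, 1348 and 1465 RPM in mid log, against 174, 260 and 194 RPM in early log, a change of 2.80 ± 0.200 (log2, SE; limma adjusted p = 0.00154), and this call held in every alternative but the unequal-variance test (adjusted p = 0.0908). In late log it held 182, 222 and 196 RPM, against the mid log values just given, a change of -2.85 ± 0.115 (limma adjusted p = 3.11e-06). Late and early log overlapped at this position. Nt 700 held 507, 547 and 600 RPM in mid log, against 28.4, 115 and 82.7 RPM in early log, a change of 3.07 ± 0.441 (limma adjusted p = 0.00933), and in late log it held 207, 187 and 182 RPM, a change of -1.52 ± 0.106 from mid log (limma adjusted p = 6.47e-05). Without mid log replicate 2 or 3 its rise over early log was not called (adjusted p of 0.057 and 0.0572). Nt 700 was also higher in late over early log, by 1.55 ± 0.413 (limma adjusted p = 0.0121), with no overlap of libraries. Nt 927 and nt 700 both end on C. Nt 1458, a U chosen after its values were seen, averaged 353 RPM for early, 1578 RPM for mid and 448 RPM for late log.

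The named falls in mid over early log lay close together, at nt 937, nt 956 and nt 965. Nt 965 held 250, 127 and 108 RPM in mid log, against 454, 412 and 542 RPM in early log, a change of -1.62 ± 0.302 (log2, SE; limma adjusted p = 0.0152). Nt 937 changed by -1.63 ± 0.293 (limma adjusted p = 0.0136) and nt 956 by -1.54 ± 0.253 (limma adjusted p = 0.0116). The mid log libraries lay below the early log ones at all 3 positions, and each of these calls was lost without mid log replicate 2 or 3. The further named falls in late over mid log were nt 1414 and nt 1426, 12 nt apart, which changed by -2.06 ± 0.137 (limma adjusted p = 6.47e-05) and -2.20 ± 0.193 (limma adjusted p = 0.000122).

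**Figure D4:**
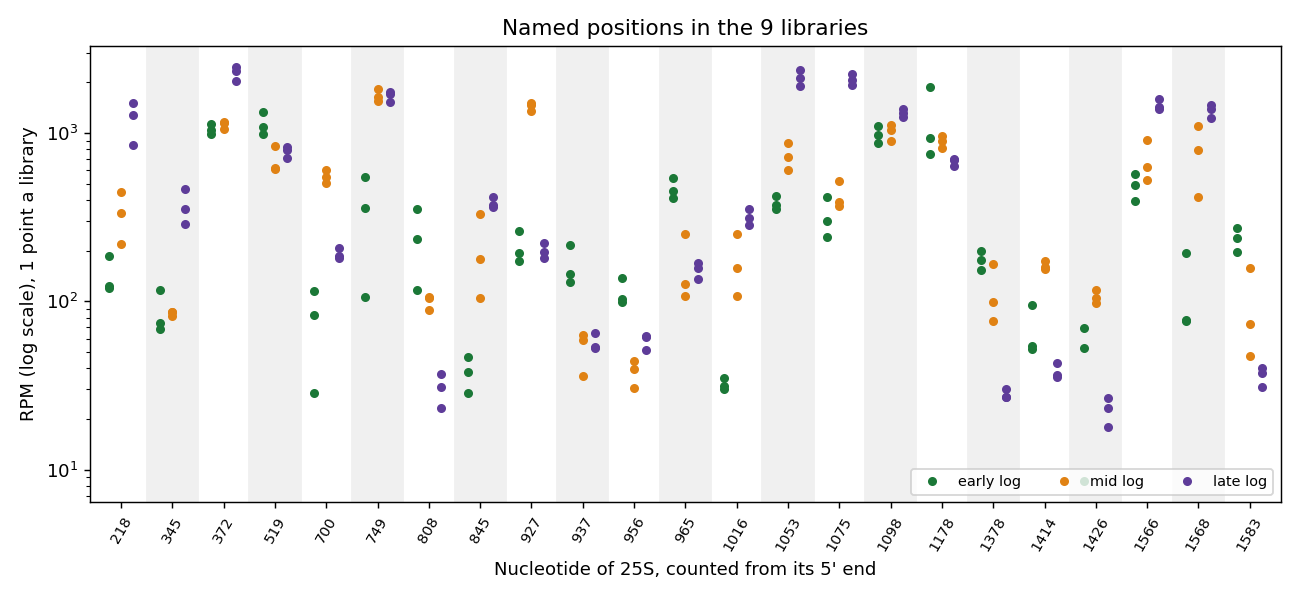
RPM on a log scale is plotted for each of the 9 libraries at the 23 positions named by rule, ordered along 25S; within a position early, mid and late log run from left to right and each point is a library. Nt 927 is highest in mid log (1348 to 1511 RPM), and nt 1075 in late log (1919 to 2245 RPM).

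Calls were also counted by the last base. Of the 312 interior positions on C, 186 were lower in late over mid log (59.6%) and 19 higher (6.09%), with a median log2 change of -0.57. On A, G and U the share called higher was 26.2%, 25.3% and 19.6% and the share called lower 22.9%, 25.1% and 23.5%, beside 20.6% higher and 30.6% lower over the interior. In mid over early log, 49 positions on C were higher (15.7%) and 9 lower (2.88%), with a median log2 change of 0.37. On A, G and U the share higher was 8.73%, 6.53% and 8.33% there and the share lower 14.4%, 8.16% and 7.84%, beside 9.29% higher and 8.81% lower over the interior. On C over the whole repeat it was 10.5% higher and 5.21% lower. In late over early log, without mid log, the share on C called lower was 27.2%, beside 31.9%, 24.9% and 25.5% on A, G and U. The interior was not alone in this, since 53.4% of C positions were lower in late over mid log in the 3′ part of 25S, 59.8% in the interior of 18S and 47.4% over the repeat. Mid log and its sequencing run cannot be told apart, and what part of the C pattern moves with the run was not tested.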

How the data were processed

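The authors collapsed duplicate reads, trimmed them with cutadapt 3.4, aligned them to R64 with STAR 2.7.3a and counted read ends per strand with bedtools 2.28.0, per the submitters' processing notes and the study's methods; SAMtools 1.12 and R 4.3.1 are also named there. The deposited values are RPM, each library being divided by its sum over the repeat up to the terminator. Dividing by the smallest value above 0 gave whole reads at 99.9% to 100% of positions (tolerance 0.01), so depth was recovered; a count of 0 allows up to 3 reads, or 0.411 to 8.55 RPM. Intervals of that kind cover counting error only. Column names in the 3 deposited tables are generic, so each column's subphase rests on which tables a sample's description lists. The authors' own p-value and ratio columns were not used.

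Positions averaging 1 RPM or more were fitted with limma 3.58.1 in R 4.3.3 (lmFit, eBayes with trend) on log2(RPM + 1) and adjusted with the Benjamini-Hochberg method over the repeat. Windows were fitted likewise on log2(mean RPM per nt + 1). Shares and ratios were compared with exact permutation tests. edgeR 4.0.16 on the recovered reads and an unequal-variance test on RPM were alternatives. The fit was checked on simulated reads. Of 100 positions changed by 1 on the log2 scale, it recovered 23 in mid over early log. It recovered 68 in late over mid log and 26 in late over early log. Of 100 positions changed by 2 it recovered 68, 87 and 78 in the same order, with 3, 8 and 7 false calls. All interior positions passed the filter. The members and lists were chosen with earlier results of these data known. Named were the 8 highest positions by the mean of the subphase means, and in each comparison the 3 largest rises and 3 largest falls among called positions averaging 100 RPM or more in either subphase. Named windows were the 2 highest, the 2 lowest, and the largest called rise and fall of each comparison.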

Additional observations from a re-analysis of the deposited data

How the results depend on the processing

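The share of 35S reads in the interior was 0.14 higher on the log2 scale in late over early log, and the median position reversed it (-0.19, exact permutation p = 0.025). The ratio of the 5′ to the 3′ part of 25S had no consistent direction in late over early log. It changed by -0.049 (log2) without positions that hold over 1% of a library and by -0.12 to 0.070 with 1 library left out. With medians it changed by -0.093, and early and late log libraries did not overlap (exact two-sided permutation p = 0.10). The other ratio, of the 5′ part of 25S to the interior of 18S, was 0.37 higher in late over early log. The G share at peaks, in percentage points of late minus early log, was 6.14 with peaks at 5 times the local median and -2.78 to 1.98 with 1 library left out. The C share came to 0 with the top 5% of positions and to 0.698 with local peaks, and the U share came to 0 with the top 5%. The window nt 931 to 1030 reversed in late over early log with the window median (-0.21).

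Counts of called interior positions in mid over early log were 1 to 399 with 1 library left out. They were lowest without mid log replicates 2 (1) and 3 (2), and without mid log replicate 1 there were 330. Without early log replicates 3 and 2 they were 129 and 158. In late over early log they were 479 to 902, lowest without late log replicate 3. The unequal-variance test called 0 in mid over early log (386 at an unadjusted p under 0.05, beside 302 calls by limma and 272 by edgeR), 248 in late over mid log and 113 in late over early log. Called windows in mid over early log were 0 to 3 with 1 library left out, with none left without mid log replicate 2 or 3 (limma; 3 and 1 at an unadjusted p under 0.05), and 2 with window medians. Windows of 50 nt gave 5 calls in mid over early log, 23 in late over mid log and 22 in late over early log, and windows of 200 nt gave 3, 7 and 6, from more and fewer windows tested. Where a value changed, the cause was not tested unless fewer samples or windows show it. Depth limits early log replicate 3 most, where 3 reads are worth 8.55 RPM.

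The deviations of same-numbered libraries from their subphase means had correlations of both signs (-0.468 to 0.359). The main tests used no pairing by number. With 3 libraries in each subphase these correlations cannot exclude a pairing. With a replicate block, the top 42 positions' share had an exact p of 0.0556 (0.57 on the log2 scale in late over early log), and mid over early log had 81 called positions and 0 called windows (limma; 4 at an unadjusted p under 0.05). The block changed the other counts of calls by less than 1.5 times.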

Other observations

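Calls were counted by the base before the RNA 3′ end as well. In late over early log, 121 of the 408 interior positions that follow a U were higher (29.7%) and 58 lower (14.2%), and of the 458 that follow an A, 54 were higher (11.8%) and 166 lower (36.2%). Over all interior positions 18.4% were higher and 27.4% lower. Over the whole repeat the shares were 18.7% higher and 22.8% lower after U, 7.40% higher and 42.9% lower after A, and 12.5% higher and 35.7% lower in all. In mid over early log the interior had 15.9% higher and 3.43% lower after U, and 2.62% higher and 17.5% lower after A, beside 9.29% and 8.81% over the interior. The order of U and A was the same over the repeat, with 9.27% higher and 7.03% lower after U and 3.15% higher and 19.4% lower after A. By the base that follows, 75 of 490 positions before a G were higher in late over mid log (15.3%) and 163 lower (33.3%), while before a C 99 of 311 were higher (31.8%) and 67 lower (21.5%), beside 20.6% and 30.6% over the interior. Over the repeat it was 11.9% higher and 25.5% lower before G and 28.3% higher and 15.7% lower before C. These counts were not tested, and neighbouring positions share their sequence context.

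Positions with at least 5 times the median of the 50 positions to each side numbered 12 to 23 in early log libraries, 24 to 44 in mid log libraries and 42 to 53 in late log libraries. The late log libraries were less deep than the mid log ones, and the part of depth in these numbers was not tested.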
